A study of Mus musculus with 48 samples.

Results

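The cytosolic ribosomal protein genes were followed in nascent RNA of mouse embryonic stem cells. The cells were of the TCF2.2 line, kept in 2i medium, which holds them in naive pluripotency. The members were the rows of the gene count table named Rpl or Rps with a number and at most 1 added letter (a, l or x), together with Rplp0, Rplp1, Rplp2 and Rpsa and without pseudogene (-ps) names. This gave 83 of 55376 genes, 51 of the large subunit and 32 of the small subunit. In the set of 8254 expressed genes, whose mean count per kb of exon was at least 10-fold above background, there were 82. The one below it was Rpl3l, a muscle paralog of Rpl3, with 17 to 47 counts per library. RefSeq types 81 of the 83 members as protein coding and 2 as pseudogenes.

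The ribosome is built from rRNA and one copy of most ribosomal proteins, so their genes are known to be transcribed at high and broadly balanced rates. Their mRNAs typically begin with a C and a run of pyrimidines, the 5′ terminal oligopyrimidine tract, through which translation is tied to growth signals. Several of them carry snoRNA genes, which guide rRNA modification, in their introns. Numbers in the names were given by migration of the proteins on gels, so that low numbers tend to mark large proteins and high numbers small ones.

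The groups compared were 4, with 2 libraries each. BRM014, which blocks BRG1 and BRM, the motor subunits of SWI/SNF remodelers, was given at 10 µM for 3 h, and its control was DMSO for 3 h. The other cells received lentivirus with an shRNA to Chd4, the remodeling ATPase of NuRD, or with a scrambled shRNA, and were taken after 24 h in 1.5 µg/mL puromycin. New RNA was labelled with 500 µM 4-thiouridine during 5 min in every group, then pulled down and sequenced, with ERCC spike-in RNA added in proportion to cell number. The labels give C57BL/6 as the strain of these libraries and call them biological duplicates of 1 cell line; nothing says that replicates came from separate cultures, so the p-values measure the spread between these libraries. The scrambled and DMSO cells differed in virus, selection and time at once, which cannot be told apart.

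Gene counts per library ran from 6982354 to 17128981, and the 2 libraries that carry the Chd4 shRNA label (r1 and r4) had the fewest. These also had the highest background, measured on olfactory and vomeronasal receptor genes: 7.01 ± 0.30 counts per kb (SD, n = 2), against 1.33 to 2.69 in the other 6 libraries. All 9 stem cell markers were in the expressed set, with a summed level of 1767 and 1849 CPM (counts scaled to a common library total) in the Chd4 shRNA libraries and 2954 to 3535 in the others. None of 7 fibroblast feeder and 6 primitive endoderm markers and 1 of 4 trophoblast markers were in it. Their sums were higher in the Chd4 shRNA libraries, at 72.5 and 85.0 CPM against 7.20 to 12.7 for the feeder list, 46.5 and 46.9 against 7.20 to 9.70 for the endoderm list and 28.4 and 29.2 against 13.8 to 20.5 for the trophoblast list, and no marker was at 0 in all libraries. Background in the same 2 libraries was 6.80 and 7.23 counts per kb, at scaling sizes of 0.53 and 0.52 relative to the mean library. The scrambled libraries had 1.33 and 1.84 counts per kb at a size of 0.75. How much of the marker sums was background was not tested, so they do not show that other cell types were present. Chd4 itself had 730 and 760 counts in the Chd4 shRNA libraries and 806 and 618 in the scrambled ones, a log2 fold change of 0.57 ± 0.16 (edgeR adjusted p = 0.00535). The nascent RNA thus did not show a loss of Chd4. An shRNA acts on finished mRNA, so newly made RNA is no check of the knockdown.

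Nearly all members were among the genes with the highest counts per kb of exon. These are levels of pulled-down RNA and not rates of transcription, and the part of unlabelled mRNA in them was not tested. Per kb of exon, 82 of 82 expressed members lay above the median expressed gene and 73 in the top 5% (95th percentile of counts per kb). Rplp1, an acidic protein of the ribosomal stalk, had the highest level, 5165 ± 1169 CPM per kb in DMSO, 4528 ± 257 with BRM014, 4042 ± 354 with the scrambled shRNA and 5636 ± 468 in the Chd4 shRNA libraries (SD, n = 2 each). Rpl36 followed at 4794 ± 1059, 4242 ± 112, 3731 ± 397 and 5446 ± 463 CPM per kb in the same order. These SDs are between libraries, and the difference of the 2 genes within a library was not tested. Rpl32, Rps27 and Rps15 came next, at 3591 ± 379, 2918 ± 472 and 2913 ± 325 CPM per kb in DMSO.

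The lowest levels belonged to paralogs. Rpl39l, a close copy of Rpl39 known from testis, stood at 7.32 ± 0.74 CPM per kb in DMSO, and Rpl10l, the autosomal copy of the X-linked Rpl10, at 10.8 ± 1.04. Rpl32l and Rpl6l followed at 65.1 ± 7.35 and 88.5 ± 5.13 CPM per kb. Rpl5 had 189.5 ± 3.29 CPM per kb in DMSO. By the mean over all 8 libraries, which includes its low level with the Chd4 shRNA, it was the fifth from the bottom and the lowest without a paralog name, while in DMSO alone Rps15a lay under it at 177 ± 44.5. These levels divide by all exonic bases of the deposited gene model, and Rpl5 has 3920 of them. The remaining stalk members and the laminin receptor gene Rpsa lay between: Rplp0 at 674 ± 49.4, Rplp2 at 239 ± 59.3 and Rpsa at 416 ± 33.8 CPM per kb in DMSO.

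With BRM014 none of 82 members was called higher and none lower by edgeR's quasi-likelihood test at an adjusted p under 0.05, whereas 3.10% of the 8254 expressed genes were called higher and 4.59% lower (7.69% in either direction). The median log2 fold change of the members was -0.01 and that of all genes 0.01. Member values ran from -0.39 to 0.19, and 3 had an unadjusted p under 0.05. Those were Rps4l, a retrocopy of Rps4x, at -0.39 ± 0.14 (adjusted p = 0.0892), Rpl14 at -0.36 ± 0.16 (adjusted p = 0.172) and the stalk gene Rplp2 at -0.34 ± 0.16 (adjusted p = 0.216). DESeq2 also called none in either direction. The median lay between shifts of opposite sign: it was 0.12 without DMSO r1, with 70 of 82 members above 0, and -0.15 without DMSO r2, with 72 of 82 below 0 and 3 called lower. It was 0.06 without BRM014 r1 and -0.05 without BRM014 r2.

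Rps4l had 204 CPM in both BRM014 libraries and 288 and 246 CPM in the DMSO libraries, with no overlap between the groups. Rpl14, whose protein sits on the solvent side of the large subunit, had 429 and 545 CPM with BRM014 and 629 and 622 CPM with DMSO. Rplp2 had 379 and 402 CPM against 582 and 408, and here the DMSO libraries differed from each other more than the lower one differed from BRM014. Over the family, BRM014 values lay above both DMSO values for 7 members, below both for 5 and between or across them for 70. Among all expressed genes 25.1% lay above and 23.3% below.

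In the Chd4 shRNA libraries members were called in both directions. Of 82 members, 21 rose and 7 fell against the scrambled shRNA (edgeR, adjusted p under 0.05), where 19.4% of all expressed genes were called higher and 20.5% lower (39.9% in either direction). The members' share called was 25.6% higher and 8.54% lower, or 34.1% in either direction, with a median of 0.10 against -0.01 over all genes. The share called higher was near the background and the share called lower was under it. Fewer cells of a type and less RNA per cell cannot be told apart in these bulk libraries. The higher background and the higher sums of feeder, endoderm and trophoblast markers given above went with the same 2 libraries, and their part in these values was not tested. Member values ran from -0.95 to 1.40 on the log2 scale, with quartiles of -0.15 and 0.41, a narrower middle range than that of all expressed genes, at -0.37 and 0.37.

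The largest rise was that of Rps28, a small protein at the mRNA exit of the small subunit. Its level was 2424 and 2383 CPM in the Chd4 shRNA libraries, 898 and 927 CPM in the scrambled ones, 1513 and 1221 CPM with DMSO and 1331 and 1432 CPM with BRM014. Both Chd4 shRNA libraries thus stood above all 6 others, and the log2 fold change against scrambled was 1.40 ± 0.17 (adjusted p = 9.21e-07). The scrambled level of Rps28 was itself called below DMSO, at -0.58 ± 0.16 (edgeR adjusted p = 0.0193).

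Rpl41, the shortest ribosomal protein, had 4679 and 4369 CPM in the Chd4 shRNA libraries and 2206 and 2436 CPM in the scrambled ones, a log2 fold change of 0.96 ± 0.18 (adjusted p = 0.000151). With DMSO it had 2786 and 2183 CPM and with BRM014 2103 and 2255 CPM, all well under the Chd4 shRNA libraries. Rps27, a zinc-finger protein of the small subunit, had 5229 and 4807 CPM against 2463 and 2991 CPM, a log2 fold change of 0.88 ± 0.18 (adjusted p = 0.000482). In DMSO and BRM014 libraries Rps27 ran from 2695 to 3392 CPM, again without overlap.

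The other large rises were Rpl32l at 0.77 ± 0.16, Rps15 at 0.75 ± 0.17, Rpl23a at 0.74 ± 0.15, Rpl35 at 0.72 ± 0.16, Rpl38 at 0.65 ± 0.17, Rpl39l at 0.64 ± 0.15 and Rpl32 at 0.63 ± 0.17, with adjusted p from 0.000487 to 0.0054. Rpl35 and Rpl23a lie at the peptide exit of the large subunit, Rps15 reaches the decoding site and Rpl38 is known for the translation of Hox mRNAs. Rpl35 had 1536 and 1512 CPM in the Chd4 shRNA libraries and 802 to 1005 CPM in the other 6. Rpl38 had 2150.2 and 1966 CPM, with 1225 and 1398 CPM in the scrambled libraries and 1148 to 1587 CPM elsewhere.

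The falls were led by Rpl5, which carries 5S rRNA into the large subunit together with Rpl11. Its level was 333 and 342 CPM in the Chd4 shRNA libraries, 606 and 693 CPM in the scrambled ones, 734 and 752 CPM with DMSO and 783 and 851 CPM with BRM014. The Chd4 shRNA libraries were below all others, with a log2 fold change of -0.95 ± 0.15 against scrambled (adjusted p = 3.5e-05). Rpl11, its partner, was not called and had a log2 fold change of 0.01.

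Rpl3, which reaches towards the peptidyl transferase centre, had 492 and 445 CPM against 808 and 846 CPM in the scrambled libraries, a log2 fold change of -0.82 ± 0.15 (adjusted p = 0.000171). Rpl4, which lines the exit tunnel, had 768 and 777 CPM against 1220.5 and 1352 CPM, a log2 fold change of -0.74 ± 0.16 (adjusted p = 0.000691). Rps4x, an X-linked protein of the small subunit body, had 610.5 and 587 CPM against 952 and 997 CPM, a log2 fold change of -0.70 ± 0.16 (adjusted p = 0.00102). The DMSO and BRM014 libraries ranged from 842 to 921 CPM for Rpl3, overlapping the scrambled ones. They lay above the scrambled ones for the other genes, from 1518 to 1719.7 CPM for Rpl4 and 1114 to 1429 CPM for Rps4x. Smaller falls were those of Rpl10l at -0.57 ± 0.15 (adjusted p = 0.00391) and Rps9 at -0.47 ± 0.16 (adjusted p = 0.0203).

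**Figure D1:**
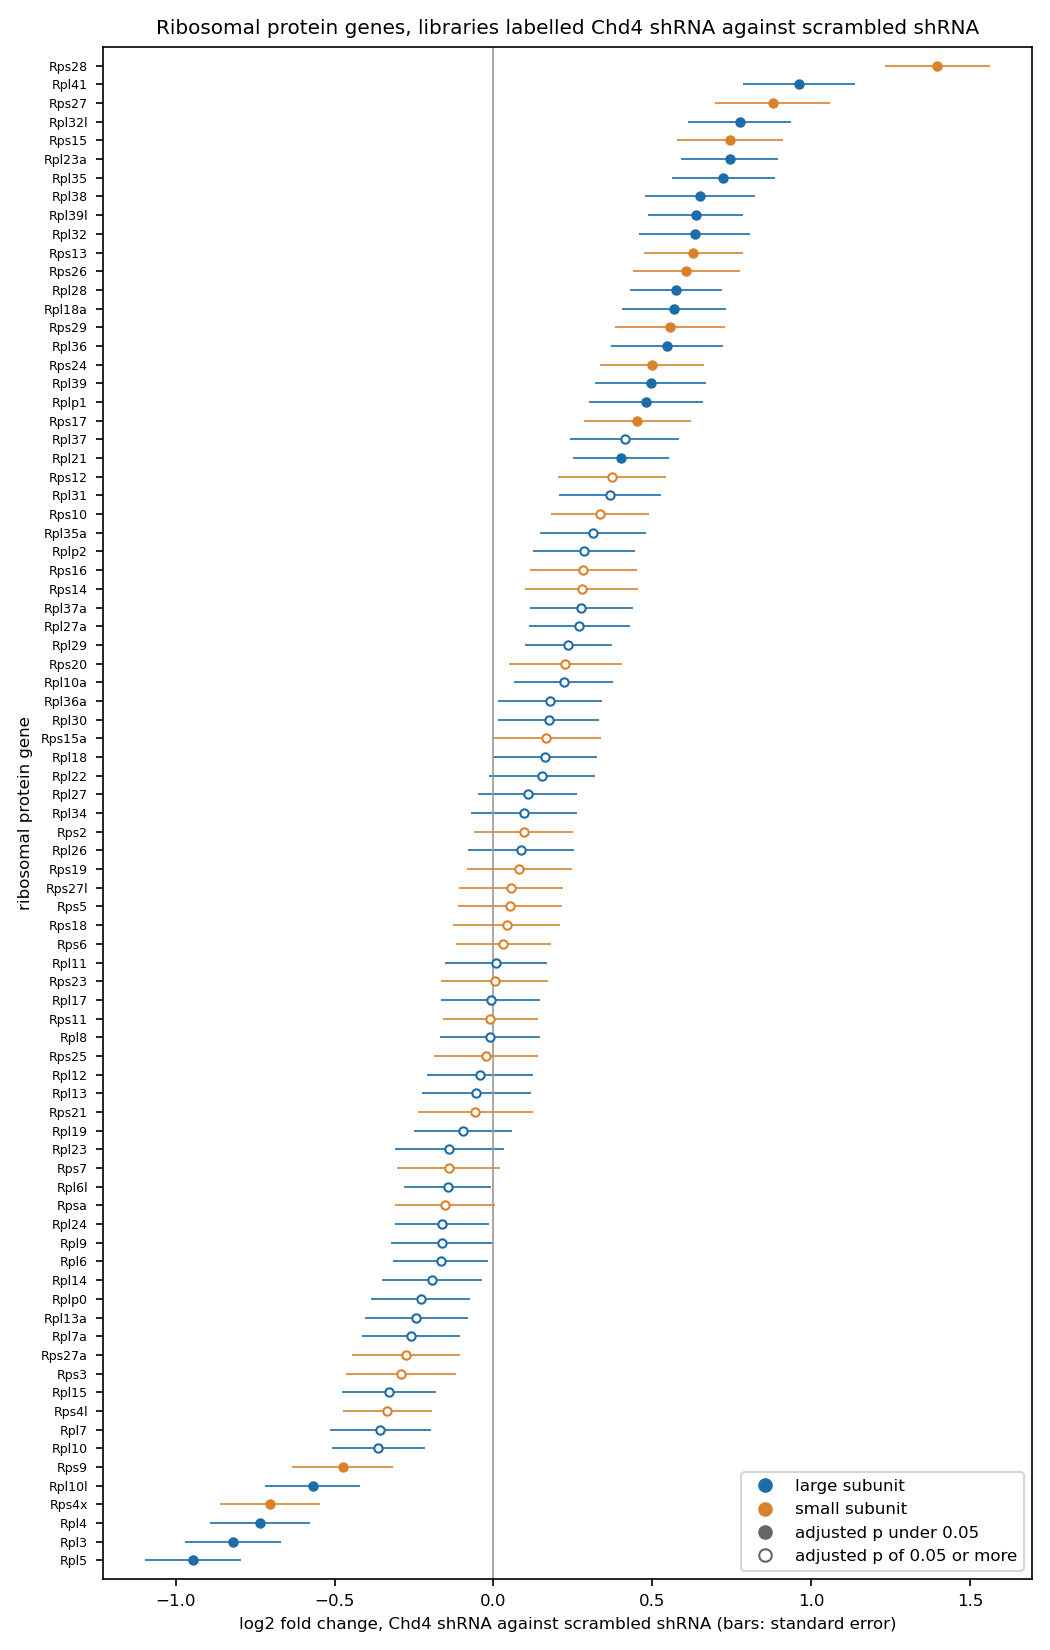
Log2 fold change of 81 of the 82 expressed ribosomal protein genes in the libraries labelled Chd4 shRNA against scrambled shRNA (x axis, bars are standard errors), ordered by value, with filled points for an adjusted p under 0.05. Rps28 is highest at 1.40 and Rpl5 lowest at -0.95, with large subunit members between -0.95 and 0.96 and small subunit members between -0.70 and 1.40.

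**Figure D2:**
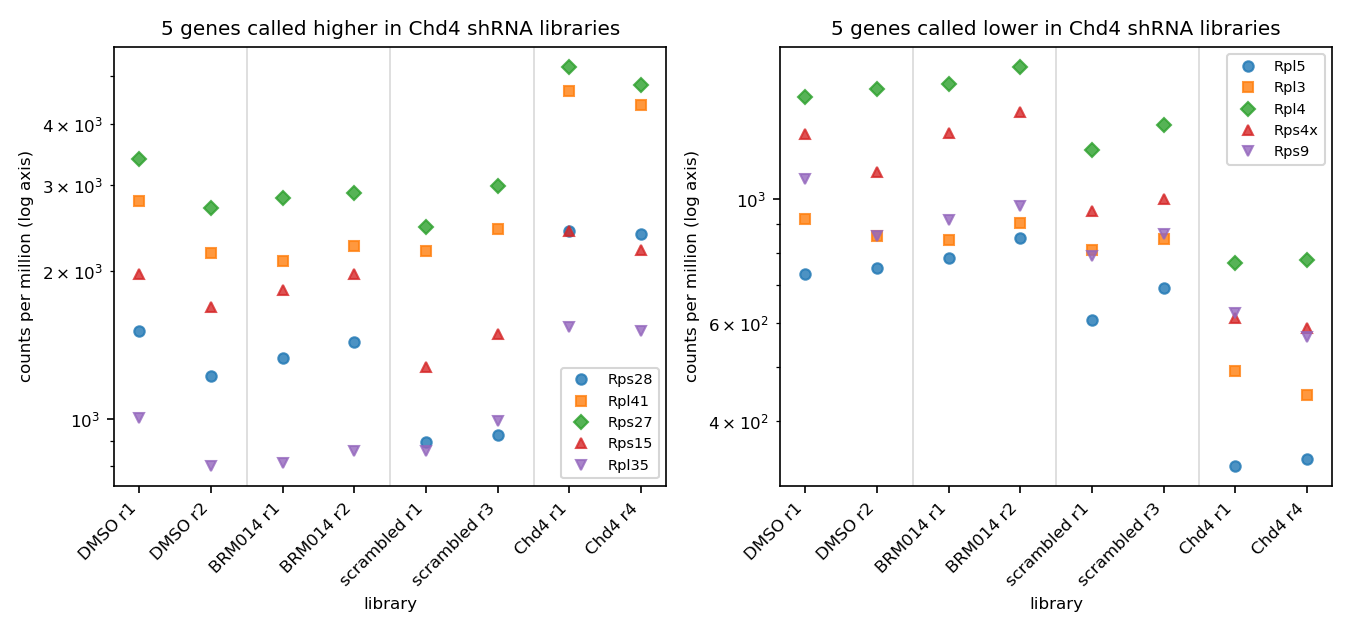
Level in each of the 8 libraries (CPM, log axis) for 5 genes called higher (left) and 5 called lower (right) in the libraries labelled Chd4 shRNA against the scrambled ones. For each gene the 2 Chd4 shRNA libraries lie on one side of the 6 others.

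The calls depended on single libraries and on the scale. Without Chd4 shRNA r1, 12 members rose and 4 fell, without Chd4 shRNA r4 14 and 5, without scrambled r1 13 and 6, and without scrambled r3 18 and 5. A different scale moves every member by a similar amount: scaled over all 35426 genes past the default filter, many of which lie near background, no member was called higher and 80 were called lower, with a median of -1.24, and scaled by ERCC sums 44 were called higher and none lower, with a median of 0.70. Most expressed genes moved likewise on the first scale, where 55 of 8254 were called higher and 7539 lower, with a median of -1.34. ERCC sums called 2822 of them higher and 62 lower, with a median of 0.59. The shares of all genes given for the main fit therefore do not apply to counts from other fits. The direction of the family as a whole was therefore not settled, and only values relative to other genes or to other members are read here.

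Scaled on the ribosomal protein genes alone, an alternative chosen after the data were seen that centres the family by construction, Rps28 was at 1.28 and Rpl5 at -1.05. Ratios of counts within a library need no scaling at all. Rps28 had 7.29 and 6.98 counts per Rpl5 count in the Chd4 shRNA libraries, 1.48 and 1.34 in the scrambled ones, 2.06 and 1.62 with DMSO and 1.70 and 1.68 with BRM014. Rpl41 had 9.52 and 9.82 counts per Rpl3 count in the Chd4 shRNA libraries and 2.49 to 3.03 in the other 6. Both ratios were chosen from the ends of the order, so they describe its size.

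The order followed the number in the gene name, a property noticed after the values were seen and given as a description. Among the 43 numbered large subunit members, the log2 fold change in the Chd4 shRNA comparison rose with the number, with a Spearman rho of 0.80, and among 29 numbered small subunit members rho was 0.47. All points share the same 4 libraries. Of the 10 large subunit members numbered 2 to 10, 3 fell and none rose, with a median of -0.31. Of the 12 numbered 31 to 41, 6 rose and none fell, with a median of 0.45. Of all expressed genes, 19.4% were called higher and 20.5% lower. The classes between had medians of -0.05 (numbers 11 to 20) and 0.17 (numbers 21 to 30). In the small subunit the median went from -0.14 (2 to 10) through 0.28 (11 to 20) to 0.50 (21 to 30).

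Taken between single libraries, where scaling cannot change a rank, rho lay between 0.77 and 0.80 for the large subunit over the 4 pairs of a Chd4 shRNA and a scrambled library, and between 0.70 and 0.78 over the 8 pairs with a DMSO or BRM014 library. For the small subunit it lay between 0.45 and 0.52 and between 0.48 and 0.56. Summed counts of the 12 large subunit members from 31 upward were 3.31 and 3.20 times those of the 10 members up to 10 in the Chd4 shRNA libraries and 1.60 to 1.96 times in the others. A weaker order of the same kind was present between the 2 DMSO libraries, where the log2 ratio of r1 to r2 had a rho of 0.63 with the number in the large subunit, and an opposite one with BRM014, where rho was -0.56. The BRM014 value rests on the same DMSO libraries. The ratio of summed counts was 1.96 in DMSO r1, 1.67 in DMSO r2 and 1.63 and 1.60 with BRM014. The total length of annotated exons followed the fold change less closely, with a rho of -0.33 over 72 numbered members, and so did the mean count, with 0.27.

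**Figure D3:**
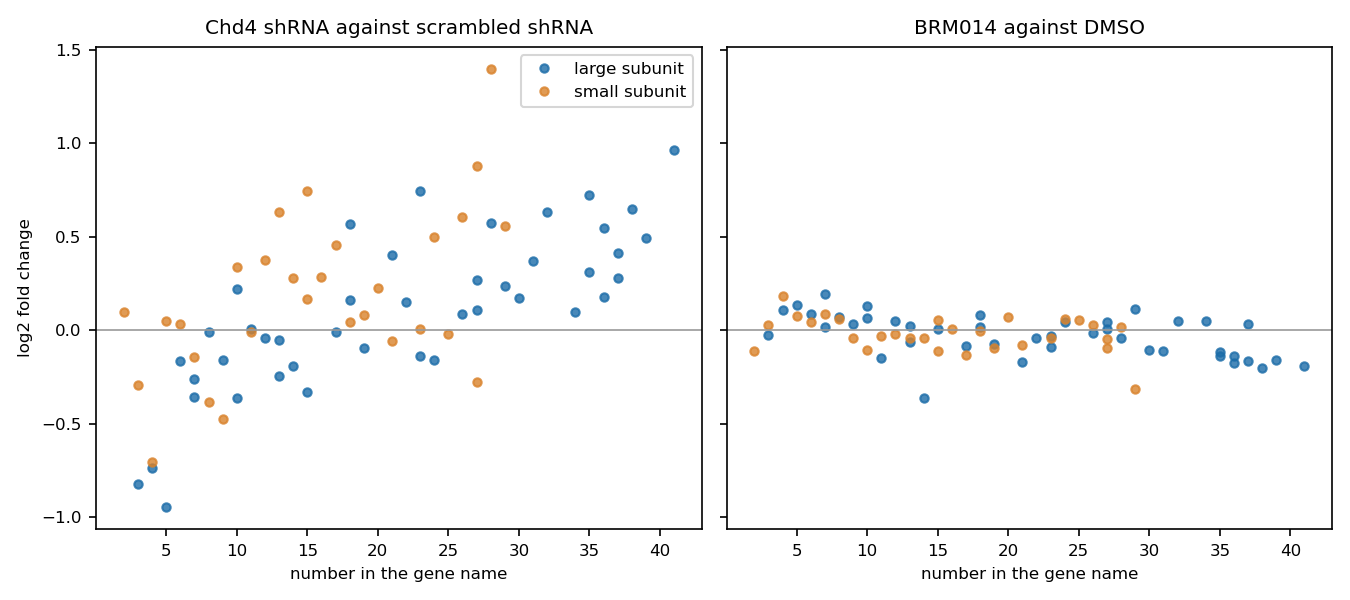
Log2 fold change (y axis) against the number in the gene name (x axis) for the 72 numbered ribosomal protein genes in the expressed set, coloured by subunit, for Chd4 shRNA against scrambled shRNA (left) and BRM014 against DMSO (right). The left panel climbs from a median of -0.31 for large subunit members up to 10 to 0.45 for those from 31, while all values in the right panel stay between -0.36 and 0.19.

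**Figure D4:**
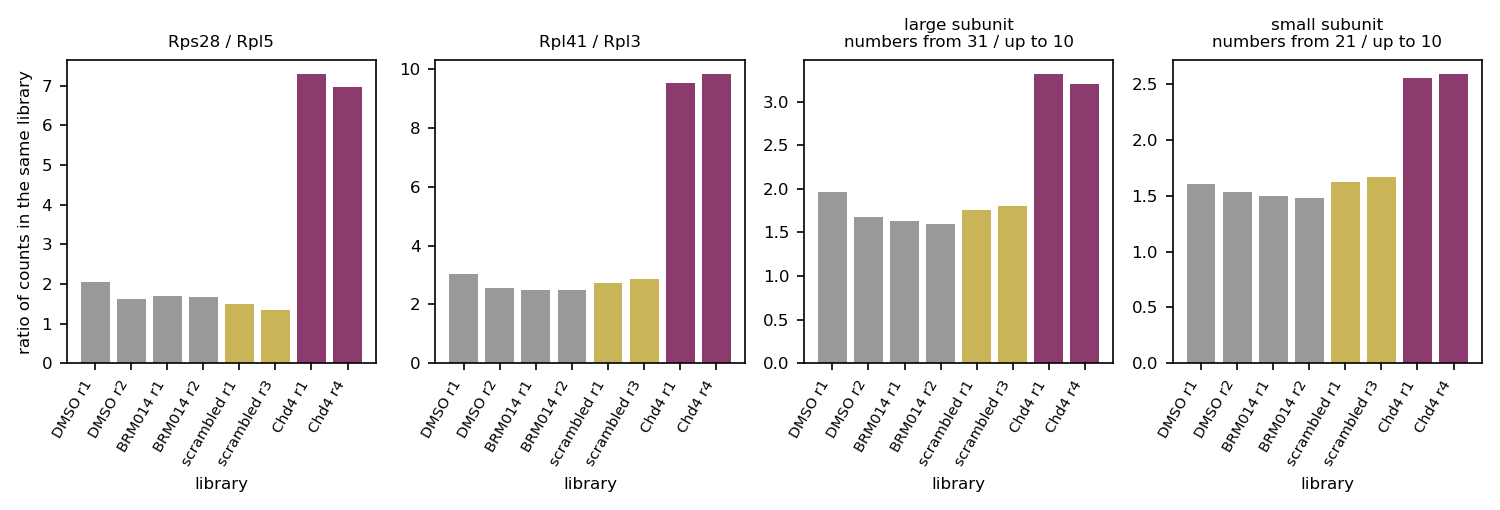
Ratios of counts within each library (y axes start at 0) for Rps28 to Rpl5, Rpl41 to Rpl3 and the summed high-numbered to low-numbered members of each subunit. The 2 libraries labelled Chd4 shRNA stand above the other 6 in all 4 panels, at 7.29 and 6.98 for Rps28 to Rpl5.

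Both subunits held called members in each direction. Of 50 expressed large subunit members 13 rose and 4 fell, and of 32 small subunit members 8 rose and 3 fell, with medians of 0.13 and 0.07. The shares over all expressed genes were 19.4% higher and 20.5% lower. All large subunit counts together were 1.13 and 1.14 times all small subunit counts in the Chd4 shRNA libraries and 1.16 to 1.20 times in the others. Of the 3 stalk genes 1 was called: Rplp1 rose by 0.48 ± 0.18 (adjusted p = 0.0365), while Rplp2 at 0.29 ± 0.16 (adjusted p = 0.166) and Rplp0 at -0.23 ± 0.16 (adjusted p = 0.253) were not called. Rpsa, at -0.15 ± 0.16 (adjusted p = 0.47), was not called either.

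The Chd4 shRNA and BRM014 effects were compared in the same fit. The difference of both effects (Chd4 shRNA effect minus BRM014 effect) was called higher for 16 members and lower for 4, where 15.4% of expressed genes were called in each direction. The higher ones were led by Rps28 at 1.38 ± 0.23 (adjusted p = 9.98e-05), Rpl41 at 1.15 ± 0.25 (adjusted p = 0.00113) and Rps27 at 0.97 ± 0.25 (adjusted p = 0.00543). They went on with Rps29, Rpl38, Rpl35, Rpl23a, Rpl36, Rps15 and Rps13, from 0.87 down to 0.67. The 4 lower ones were Rpl5 at -1.08 ± 0.21 (adjusted p = 0.000461), Rps4x at -0.88 ± 0.22, Rpl4 at -0.84 ± 0.22 and Rpl3 at -0.80 ± 0.21. Leaving out single libraries gave 7 to 28 higher and 3 to 9 lower, with the fewest higher without BRM014 r1, 8 without Chd4 shRNA r4 and without scrambled r1, 9 without Chd4 shRNA r1, 10 when BRM014 r2 was left out and 28 for DMSO r2. The 9 lower were reached when DMSO r1 was left out.

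The shRNA controls differed from the DMSO controls. In scrambled against DMSO, 2 members were called higher and 8 lower, where 7.11% of expressed genes were called higher and 6.00% lower. The member median was -0.21 against 0.02 over all genes, and 74 of 82 members were below 0. Without DMSO r1 the median was -0.10, with 50 of 82 below 0, and without DMSO r2 it was -0.33. The 8 lower genes were Rpl14 at -0.87 ± 0.16 (adjusted p = 0.000621), Rps28 at -0.58 ± 0.16 (adjusted p = 0.0193), Rpl28 at -0.57 ± 0.14, Rps18 at -0.57 ± 0.17, Rps29 at -0.54 ± 0.17, Rps10 at -0.53 ± 0.15, Rps6 at -0.52 ± 0.15 and Rpl31 at -0.51 ± 0.16. This count depended on each library of both groups. It was 31 without DMSO r2, 4 without DMSO r1 and 1 without either scrambled library. The scrambled libraries also serve as controls of the Chd4 shRNA comparison, and the DMSO libraries as controls of BRM014, so these comparisons share samples.

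Rpl14 had 331 and 353 CPM in the scrambled libraries and 267 and 331 CPM in the Chd4 shRNA libraries, against 629 and 622 CPM with DMSO, so it was low in all 4 shRNA libraries. Rps6, the ribosomal protein phosphorylated by S6 kinase, had 545 and 576 CPM in the scrambled, 564 and 582 CPM in the Chd4 shRNA and 846 and 763 CPM in the DMSO libraries. Rps28 went the other way, low in the scrambled libraries alone and high in the Chd4 shRNA ones.

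The 2 members that rose were paralogs. Rpl10l had 28.0 and 30.9 CPM in the scrambled libraries and 11.8 and 10.3 CPM with DMSO, a log2 fold change of 1.42 ± 0.14 (adjusted p = 5.7e-07). Rpl39l had 13.9 and 17.8 CPM and 6.52 and 5.65 CPM, a log2 fold change of 1.38 ± 0.16 (adjusted p = 2.48e-06). Counts of Rpl10l were 7.14% and 7.75% of those of Rpl10 in the scrambled libraries, 5.58% and 7.33% in the Chd4 shRNA libraries and 1.84% to 2.33% with DMSO and BRM014. Rpl39l made 1.31% to 1.58% of Rpl39 in the 4 shRNA libraries and 0.418% to 0.606% in the other 4. In both pairs the share of the paralog was higher in all 4 shRNA libraries than in the other 4. Rps4l made 25.8% to 34.1% of Rps4x in the 4 shRNA libraries and 14.3% to 22.1% in the other 4. The remaining paralogs did not separate these libraries in the same way: Rpl6l held 8.72% to 9.56% of Rpl6 in all 8 libraries and Rpl32l 0.747% to 0.911% of Rpl32, and Rps27l made 15.5% and 16.7% of Rps27 in the Chd4 shRNA libraries and 22.7% to 29.9% in the other 6. Reads can be shared with near-identical copies, so the levels of paralogs and of their namesakes are uncertain. Rows named as ribosomal protein pseudogenes, 305 in number, held 17.1% to 18.6% as many counts as the members.

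The share of counts drawn by the family depended on the scale. Members took 11.7 ± 2.57% of expressed gene counts with BRM014, 10.8 ± 0.67% with DMSO, 10.6 ± 0.02% in the Chd4 shRNA libraries and 7.01 ± 0.81% with the scrambled shRNA (SD, n = 2). Both Chd4 shRNA libraries lay above both scrambled ones, and an exact two-sided permutation test gave p = 0.33, the smallest possible with 2 against 2. Summed over the members on the TMM scale of all other levels, the scrambled libraries had 83249 and 92223 CPM and the DMSO libraries 112901 and 91147 CPM, which overlap. The Chd4 shRNA libraries had 107148 and 100310 CPM on that scale, above both scrambled ones but by a smaller factor than in the share of counts. Per ERCC count there were 10.8 ± 1.06 member counts with BRM014, 10.9 ± 0.01 with DMSO, 22.9 ± 6.07 in the Chd4 shRNA libraries and 12.8 ± 1.46 with the scrambled shRNA (exact permutation p = 0.33 for Chd4 shRNA against scrambled). ERCC RNAs were added by cell number, so this ratio is a measure per cell as far as recovery was even. The Chd4 shRNA libraries differed in it, at 18.6 and 27.2.

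Promoter sequence was available in a RefSeq table (GRCm38.p6) for 61 of 83 members, as 250 bases before and 50 bases from the annotated start. A start tract, here a C at the first base followed by at least 4 C or T, was found in 13 of 61 members (21.3%) and in 2.49% of all 27025 genes. CCGGAAG, the core bound by GABP and other ETS factors, was found on either strand in 24 of 61 (39.3%) and 9.12% of all, and GGGCGG, the GC box, in 35 of 61 (57.4%) and 35.9% of all. TATAAA was found in 6 of 61 (9.84%) and 14.2% of all, the E-box CACGTG in 5 (8.20%) and 7.24%, and AAGATGGC, a YY1 motif, in 4 (6.56%) and 2.88%. TCTCGCGAGA, searched after the sequence of Rps28 had been seen, was in 5 (8.20%) and 0.496% of all. Matches of different motifs may overlap, and a match is only a match of letters.

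The windows of 50 bases before and 20 bases from the start are shown for genes at both ends of the Chd4 shRNA order. Not all genes there with an entry are shown. Rpl32l and Rps15, with larger rises than Rpl35, and Rpl10l, with a larger fall than Rps9, have an entry and were left out. Among those left out, Rpl32l begins with a start tract, Rps15 has none of the motifs and Rpl10l has GGGCGG. Capitals mark the listed motifs and, where the first base begins a start tract, its whole pyrimidine run, and the start is base 51. The 5 shown that rose lie at chr17:33824543-33824612 (Rps28, minus strand), chr10:128549149-128549218 (Rpl41, minus strand), chr3:90213629-90213698 (Rps27, minus strand), chr2:39005112-39005181 (Rpl35, minus strand) and chr11:114668530-114668599 (Rpl38, plus strand).
Rps28: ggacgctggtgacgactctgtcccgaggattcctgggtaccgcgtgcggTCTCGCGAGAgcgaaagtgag
Rpl41: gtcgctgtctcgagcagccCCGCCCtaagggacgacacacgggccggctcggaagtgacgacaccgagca
Rps27: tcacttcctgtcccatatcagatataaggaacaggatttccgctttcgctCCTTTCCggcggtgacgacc
Rpl35: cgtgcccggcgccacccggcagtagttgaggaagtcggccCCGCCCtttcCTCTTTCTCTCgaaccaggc
Rpl38: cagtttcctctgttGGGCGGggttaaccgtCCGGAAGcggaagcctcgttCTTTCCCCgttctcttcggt

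Of these, Rps27, Rpl35 and Rpl38 begin with a start tract and Rps28 with the TCTCGCGAGA match across its start. The 4 shown that fell lie at chr5:107900478-107900547 (Rpl5, plus strand), chr9:64173337-64173406 (Rpl4, plus strand), chrX:102189372-102189441 (Rps4x, minus strand) and chr7:3703991-3704060 (Rps9, plus strand).
Rpl5: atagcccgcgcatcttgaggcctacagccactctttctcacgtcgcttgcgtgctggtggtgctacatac
Rpl4: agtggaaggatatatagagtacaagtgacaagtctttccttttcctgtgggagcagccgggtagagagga
Rps4x: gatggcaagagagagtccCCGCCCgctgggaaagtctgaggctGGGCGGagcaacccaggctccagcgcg
Rps9: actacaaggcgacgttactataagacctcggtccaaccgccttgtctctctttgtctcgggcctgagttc

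None of these 4 begins with a start tract at the RefSeq start, although runs of pyrimidines stand near it in Rps9, Rpl4 and Rpl5, and the deposited gene models often begin at another base. Over all members with an entry, those with a start tract had a median log2 fold change of 0.29 in the Chd4 shRNA comparison (13 genes, 5 called higher and none lower) and those without one 0.08 (47 expressed genes). Beside these counts stand the shares over all expressed genes, 19.4% higher and 20.5% lower. For CCGGAAG the medians were 0.09 and 0.09, and for GGGCGG 0.10 and 0.09. Of the rarer motifs, TATAAA and CACGTG split at least as widely as the start tract. Their medians with and without a match were 0.34 and 0.07 for TATAAA (6 genes, 3 called higher) and -0.14 and 0.11 for CACGTG (5 genes). AAGATGGC split less widely, at 0.24 and 0.09 (4 genes). No test was made of these splits.

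Many members share their locus with other transcripts. By coordinates, 25 members held 43 snoRNA genes on the same strand, 32 of them named as snoRNAs and 11 typed so by RefSeq. Other short rows inside members on the same strand had neither such a name nor such a type and were not counted. An example is Gm26205 inside Rpl6, with 134 bases and a mean of 153.9 counts, so further hosts may exist. Of the 25 hosts, 5 rose and 4 fell in the Chd4 shRNA comparison, with a median of -0.01. Of the 51 members counted neither as hosts nor as paralogs, 14 rose and 2 fell, with a median of 0.16. Over all expressed genes 19.4% were called higher and 20.5% lower. All 43 snoRNA genes were in the expressed set, at a median of 3.73% of their host's counts per kb. The filter scales with length, so short rows pass on few counts, such as Snord14a with a mean of 6.25. These rows lie inside their hosts on the same strand, so their counts may include reads of unspliced host RNA. The part of such reads was not tested.

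With BRM014, 14 of 43 were called lower (32.6%) and 1 higher, whereas none of the 25 hosts was called. Short genes were lower as a class: among all 801 expressed genes of at most 200 bases, 21.3% were called lower, with a median of -0.30. Leaving out single libraries left 6 to 15 called lower, with 6 without BRM014 r2 and 8 without BRM014 r1 or DMSO r1, and DESeq2 called 6. In the Chd4 shRNA comparison 3 of 43 were called higher and 7 lower, where 14.9% of the genes of at most 200 bases were called higher and 13.6% lower. The median was -0.29 for the snoRNA genes and -0.01 for their hosts. Without single libraries 1 to 2 were called higher and 1 to 5 lower, with the fewest lower without Chd4 shRNA r4, 3 without Chd4 shRNA r1 or scrambled r1, and the fewest higher without Chd4 shRNA r1 or scrambled r3.

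The 3 called higher lay inside Rpl5, which holds 3 snoRNA genes at chr5:107904555-107904648 (Snord21), chr5:107905177-107905308 (Gm22270) and chr5:107907345-107907476 (Gm26387) of mm10. Gm22270 had 288 and 420 counts with BRM014, 919 and 754 with DMSO, 515 and 376 in the Chd4 shRNA libraries and 375 and 302 with the scrambled shRNA. Its log2 fold change was -1.08 ± 0.16 with BRM014 (adjusted p = 6.97e-05), where Rpl5 stood at 0.14 ± 0.15, and 0.90 ± 0.17 in the Chd4 shRNA comparison (adjusted p = 0.000152), where Rpl5 fell by 0.95. Snord21 and Gm26387 had the same signs, at -0.99 ± 0.15 and -0.91 ± 0.17 with BRM014 and at 0.63 ± 0.20 and 0.55 ± 0.20 in the Chd4 shRNA comparison. In scrambled against DMSO, Snord21 was itself called lower, at -1.05 ± 0.17 (adjusted p = 0.000155), and its counts were 50 and 50 with the Chd4 shRNA and 50 and 42 with the scrambled one. Gm22270 stood at -0.37 ± 0.16 there (adjusted p = 0.136) and Gm26387 at -0.35 ± 0.18 (adjusted p = 0.212). Within a library, Gm22270 made 25% and 18% of the Rpl5 count in the Chd4 shRNA libraries, 7.06% and 4.97% in the scrambled ones, 7.78% and 5.67% with DMSO and 2.94% and 2.82% with BRM014. In the Chd4 shRNA comparison the calls of the smaller 2 were lost without 1 library, Gm26387 without Chd4 shRNA r1 or either scrambled library and Snord21 without either Chd4 shRNA library or scrambled r3. In Rpl3, by contrast, Snord43 fell together with its host, at -1.06 ± 0.20 (adjusted p = 0.0002), and in Rpl4 Snord16a was called higher with BRM014, at 1.11 ± 0.30 (adjusted p = 0.0207) on 20 and 42 counts with BRM014 and 16 and 16 with DMSO.

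**Figure D5:**
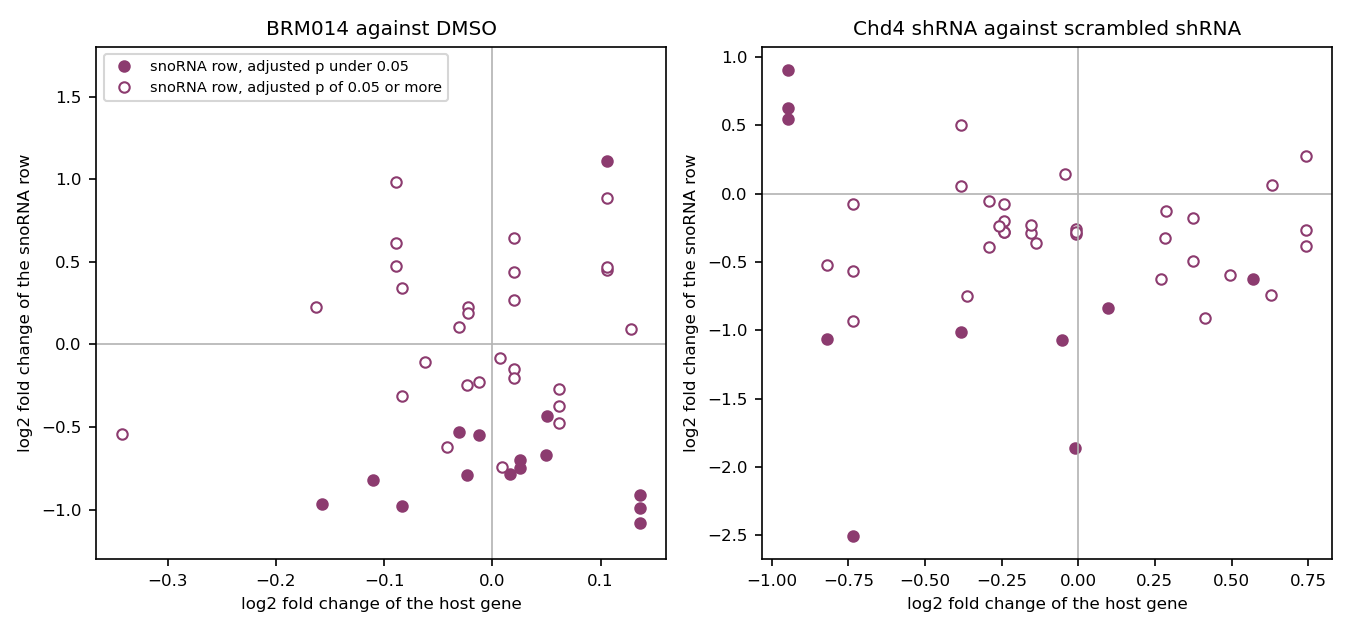
Log2 fold change of the 43 snoRNA genes that lie inside ribosomal protein genes (y axis) against that of their host (x axis), filled where the snoRNA gene had an adjusted p under 0.05. With BRM014 (left) 14 are called lower while hosts stay within -0.34 to 0.14, and in the Chd4 shRNA comparison (right) the 3 called higher, all inside Rpl5, stand at the top left.

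Other overlaps limit single values. Counts of the read-through rows Gm28037, Gm49804 and Gm45713 were 99.4%, 98.4% and 95.3% of those of Rpl24, Rps10 and Rpl13a, so the same reads were largely counted for both. Map7, which overlaps Rpl32l on the same strand, had 48.7% of its count, so the value of Rpl32l may include reads of Map7. Rows on the opposite strand also carried many counts: Tlcd1 59.6% of the Rpl23a count, Wdr38 53.6% of Rpl35 and Ube2s 45.8% of Rpl28. The strand used in counting is not given in the sources used here, so the values of Rpl23a, Rpl35 and Rpl28 may include reads of these partners. For Rps28 the largest overlapping row, Kank3, held 2.95% of its count, and 36 members overlapped no other row.

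Other genes of the ribosome and of translation were taken from lists set up with earlier results of these data known. Over all expressed genes, 19.4% were called higher and 20.5% lower in the Chd4 shRNA comparison. With BRM014 these shares were 3.1% and 4.59%. Of 8 expressed ribosomal and ribosome-associated genes outside the name rule, 3 rose and 3 fell in the Chd4 shRNA comparison. Fau, which encodes a ribosomal protein fused to a ubiquitin-like protein, rose by 0.72 ± 0.16 (adjusted p = 0.000925). Rpl22l1 and Rpl7l1, paralogs of Rpl22 and Rpl7, fell by 1.16 ± 0.16 (adjusted p = 7.97e-06) and 0.69 ± 0.13 (adjusted p = 0.000301). None of the 8 was called with BRM014.

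Of 16 translation genes with a known terminal oligopyrimidine tract other than ribosomal proteins, 11 fell in the Chd4 shRNA comparison and none rose, with a median of -0.47. Eif3e fell by 1.23 ± 0.15 (adjusted p = 1.14e-06), the nucleolar chaperone Npm1 by 0.83 ± 0.16 (adjusted p = 0.000264) and the elongation factor Eef1a1 by 0.81 ± 0.17 (adjusted p = 0.000642). Among 31 initiation factors 14 fell and 4 rose, led by Eif2s1, the alpha subunit of eIF2, at -1.57 ± 0.15 (adjusted p = 2.7e-08). Of 40 ribosome biogenesis genes 14 fell and 8 rose, and of 78 mitochondrial ribosomal protein genes 22 fell and 5 rose, with medians of -0.19 and -0.14. The mixed direction in the cytosolic family, with a median of 0.10, stood beside lower medians in these 4 lists. Medians were also lower for the 8 genes outside the name rule (-0.08) and for noncoding snoRNA hosts (-0.26). They were higher for Pol I and rDNA transcription (0.17), growth regulators (0.32) and factors linked to ribosomal protein promoters (0.39). These contrasts between lists were not tested.

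The remaining lists were read in the Chd4 shRNA comparison beside the same shares, 19.4% higher and 20.5% lower, and were not tested against them. Of 13 expressed genes of Pol I and rDNA transcription 3 rose and 1 fell. Of 5 factors linked to ribosomal protein promoters 3 rose and none fell, and of 14 noncoding snoRNA host genes 4 fell and none rose. Of 6 growth regulators 2 rose and 2 fell. Mycn, a MYC family gene known to drive ribosome production, fell by 1.10 ± 0.16 (adjusted p = 1.33e-05) there and by 0.82 ± 0.13 with BRM014 (adjusted p = 0.000123), where no ribosomal protein gene was called. With BRM014 the lists had few calls: 1 higher among the 16 oligopyrimidine genes (Eif3e, 0.47 ± 0.14, adjusted p = 0.0331), 2 higher among initiation factors, 3 higher and 1 lower among biogenesis genes and 1 lower among mitochondrial ribosomal protein genes.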

How the data were processed

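Nascent RNA of 8 libraries, 2 in each of 4 groups, was analysed from a gene table of deposited counts. Per the submitters' processing notes the tools were Trim Galore 0.6.4, STAR 2.7.1a, featureCounts and edgeR 3.32.1, and the build was mm10; the strand setting and the handling of reads with several matches are not given in the sources used here. Read sharing between near-identical copies can therefore shift counts. The columns of Chd4 shRNA r4 and scrambled r3 were placed by group alone, since their numbers match no single label. The 40 ChIP samples were not used here.

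Expressed genes were the 8254 of 55376 whose mean count per kb was at least 10-fold that of 1971 olfactory and vomeronasal receptor genes (6007.8 kb). All 4 groups entered 1 fit by edgeR 4.0.16 (R 4.3.3; TMM scaling over the expressed genes, quasi-likelihood F test), with Benjamini-Hochberg adjustment over 8254 genes and calls at an adjusted p under 0.05. Standard errors are the log2 fold change divided by the square root of F. CPM values use the same scaling. DESeq2 1.42.0, other scalings and filters and left-out libraries were alternatives, and the test was checked on simulated data. Named members were the 10 largest called rises and falls per comparison whose groups did not overlap, the 5 highest and 5 lowest per kb, the stalk and receptor genes, the paralogs ending in l and any under the filter; from other lists, up to 4 genes with the smallest p. Rpl11 and, among uncalled genes, Rpl14 were named after their values were seen. The members and lists were chosen with earlier results of these data known. Values of 2 genes are not reported here.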

Additional observations from a re-analysis of the deposited data

How the results depend on the processing

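The cause of each change below was not tested. Calls over all expressed genes changed with the setting too, so the main-fit shares do not apply to the counts below. With TMM over all filtered genes, 7539 of 8254 genes were lower in the Chd4 shRNA comparison and 7134 in the difference of effects. In the Chd4 shRNA comparison, where 21 members were higher, 7 lower and the median was 0.10, the counts higher and lower and the median were 0, 80 and -1.24 with TMM over all genes past the default filter, 44, 0 and 0.70 with ERCC sums, 1, 0 and 0.29 with TMM among ERCC RNAs, and 4, 26 and -0.29 with genes at least 3-fold above background. The count higher and the median were 41 and 0.29 at 30-fold and 36 and 0.33 with background subtracted. The count lower was 11 with DESeq2, the default filter, no filter or the comparison's own libraries, 3 without members that hold snoRNA genes, and 22, with a median of -0.014, scaled on the family alone. A minimum log2 change of 1 left 1 higher and 0 lower. Without single libraries 12 to 18 were higher, 4 to 6 lower and the median 0.038 to 0.20.

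For the difference of effects, the counts higher and lower and the median were 0, 77 and -1.25 with TMM over all filtered genes, 2, 18 and -0.26 at 3-fold, and 0 and 0 with TMM among ERCC RNAs. They were 32 higher with a median of 0.32 at 30-fold, 27 with 0.37 after background subtraction, 0 lower with 0.74 for ERCC sums, 15 lower on the family scale, 1 lower without snoRNA hosts, and 2 and 1 at a minimum change of 1. Without single libraries 7 to 28 were higher and 3 to 9 lower.

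With BRM014, 1 member was lower at 30-fold, the median was 0.16 with TMM among ERCC RNAs, and 0 to 3 were lower without single libraries. In scrambled against DMSO the count lower was 17 with DESeq2 and at 30-fold, 16 with TMM over all filtered genes, 0 with ERCC sums (median 0.23) and at a minimum change of 1, 1 with no filter and 2 on its own libraries; TMM among ERCC RNAs gave 0 higher and 0 lower, the family scale a median of -0.046, and single libraries left out 1 to 31.

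Of snoRNA genes inside members, the counts higher and lower with BRM014 were 0 and 6 with DESeq2, 0 and 1 with ERCC sums and on the family scale, 0 and 0 with TMM among ERCC RNAs, 0 and 7 with no filter, and 0 higher at 30-fold; without single libraries they were 0 to 3 and 6 to 15. In the Chd4 shRNA comparison they were 1 and 3 with DESeq2, 0 and 41 with TMM over all filtered genes, 0 and 0 with TMM among ERCC RNAs, 1 and 16 at 3-fold, 1 and 4 on the family scale, 0 lower with ERCC sums and 2 lower at 30-fold; without single libraries they were 1 to 2 and 1 to 5. The family's share was 10.1% (DMSO) and 8.86% (Chd4 shRNA) of all gene counts and 10.9% (Chd4 shRNA) after background subtraction, and DMSO held 10.9 counts per count of the 5 abundant ERCC RNAs.

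Signs turned with ERCC sums for Rpl10l (0.068) and Rps9 (0.13) in the Chd4 shRNA comparison. With TMM over all filtered genes, which moved the median of all genes by -1.34, they turned there for Rpl41 (-0.37), Rps27 (-0.45), Rpl32l (-0.56), Rps15 (-0.59), Rpl23a (-0.59), Rpl35 (-0.61), Rpl38 (-0.69), Rpl39l (-0.70), Rpl32 (-0.70), Gm22270 (-0.43), Gm26387 (-0.79), Snord21 (-0.71) and Fau (-0.62), and in the difference for Rps28 (-0.0064), Rpl41 (-0.23), Rps27 (-0.41), Rps29 (-0.52), Rpl38 (-0.53), Rpl35 (-0.55), Rpl23a (-0.56), Rpl36 (-0.66), Rps15 (-0.70) and Rps13 (-0.72). Of 40 called member results named by the rule, 40 lost their call under at least 1 alternative.

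Numbers 1 and 2 are shared by BRM014 and DMSO libraries, but deviations of same-numbered libraries had a correlation of -0.22 over expressed genes and 0.28 over the members. With the replicate number as a block, 0 members were higher and 0 lower with BRM014, 15 and 4 in the difference and 2 and 7 in scrambled against DMSO. With the numbers crossed, a block chosen after seeing the data, these counts were 0 and 1, 21 and 6, and 2 and 4. No paired analysis was possible for the Chd4 shRNA comparison because its libraries share the number 1 alone.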
